A study of Mus musculus with 3 samples.

Results

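Oxidative phosphorylation is carried out by 5 protein complexes of the inner mitochondrial membrane. Complexes I, III and IV pump protons while they pass electrons to oxygen, complex II feeds electrons in from the TCA cycle, and complex V, the ATP synthase, uses the proton gradient to make ATP. All but complex II are built from 2 genomes: most subunits are encoded in the nucleus, transcribed there and imported as proteins, whereas a small core is encoded on the mitochondrial DNA, transcribed inside the organelle from long polycistronic precursors and cut out mainly at the tRNAs that lie between the genes. The members described here were chosen by gene symbol alone, with no measured value: rows named as Nduf subunits and accessory genes (complex I), Sdha to Sdhd (II), Uqcr (III), Cox4 to Cox8 (IV) and Atp5 (V), and the protein-coding genes of the mitochondrial genome, with symbols ending in -ps left out. Of the 43280 genes listed, 105 were members, 92 of them nuclear and 13 mitochondrial. At a mean of at least 5 CPM (counts scaled to library size) over the libraries, 99 were measured, 86 nuclear and all 13 mitochondrial.

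Polyadenylated RNA was sequenced from mouse skeletal mesenchyme at E15.5, calvarial according to the series and thus the source of the skull vault. Each of 3 genotypes had 1 library. They differed at Ctnnb1, the gene of beta-catenin, which acts both in cell adhesion and as the transcriptional arm of Wnt signalling. The control was beta-catenin fx/fx with no Cre, the cKO was fx/fx with Dermo1-Cre, and the dTF-cKO was fx/dm with Dermo1-Cre, so every library carried at least 1 floxed allele. The labels do not define dm; an allele so named in mouse genetics encodes a beta-catenin that keeps its role in adhesion but is deficient in transcription. Dermo1-Cre is driven by the Twist2 locus, which is active in mesenchyme, and since the control had no Cre, its presence and the loss of beta-catenin cannot be told apart. The labels call the material primary cells and do not say how many embryos were pooled. With 1 library a genotype there was no test of genotype and no p-value: intervals are 95% counting intervals that leave out the spread between embryos, and "higher" or "lower" compares 2 libraries.

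Ctnnb1 held 3669, 2106 and 1236 counts in the control, cKO and dTF-cKO, the order used for all triplets of values below, or 1026, 745 and 442 CPM. It was 1.38-fold lower in the cKO (1.31 to 1.45) and 2.32-fold lower in the dTF-cKO (2.18 to 2.48). Library totals ran from 2678457 to 3634819 counts. The libraries differed widely in cell-type markers. The summed share of 14 osteoblast genes was 18.3%, 4.16% and 0.800%, skeletal muscle genes summed to 8716, 1133 and 59 counts, epidermal genes to 528, 77464 and 38174 counts, and erythroid genes to 0.644%, 0.576% and 1.54%. The 33 stromal genes had median log2 differences from the control of 0.45 (cKO) and -1.88 (dTF-cKO), and the mesenchymal factor Prrx1 held 1146, 598 and 114 counts. In such bulk samples fewer cells of a type and less RNA per cell cannot be told apart, and the part of these markers in the member values below was not tested.

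Nuclear and mitochondrial members stood in another proportion in the dTF-cKO library than in the control and the cKO. The 92 nuclear members summed to 23141, 20335 and 27639 counts, or 0.637%, 0.759% and 0.951% of each library. The 13 mitochondrial members summed to 28728, 26810 and 15357 counts, or 0.790%, 1.0% and 0.529%. The nuclear sum was therefore highest, and the mitochondrial sum lowest, in the dTF-cKO.

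Dividing one sum by the other within a library needs no scaling between libraries. There were 1.24 mitochondrial counts per nuclear count in the control (1.22 to 1.26), 1.32 in the cKO (1.30 to 1.34) and 0.556 in the dTF-cKO (0.545 to 0.567). Against the control the ratio of the dTF-cKO was 2.23-fold lower, a log2 difference of -1.16, and 2.37-fold lower than in the cKO. Between the cKO and the control the log2 difference was 0.09, and its sign changed with the treatment of nuclear copies described below. Setting the median of 33 stromal genes equal between libraries moves every gene of the dTF-cKO up by 1.88 on the log2 scale. Under that scaling the mitochondrial median of the dTF-cKO lay at 0.42, the nuclear median at 2.43 and that of all measured genes at 1.94. The lower level of mitochondrial members per library given below thus depends on the scaling, while the ratio between the genomes does not.

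**Figure D1:**
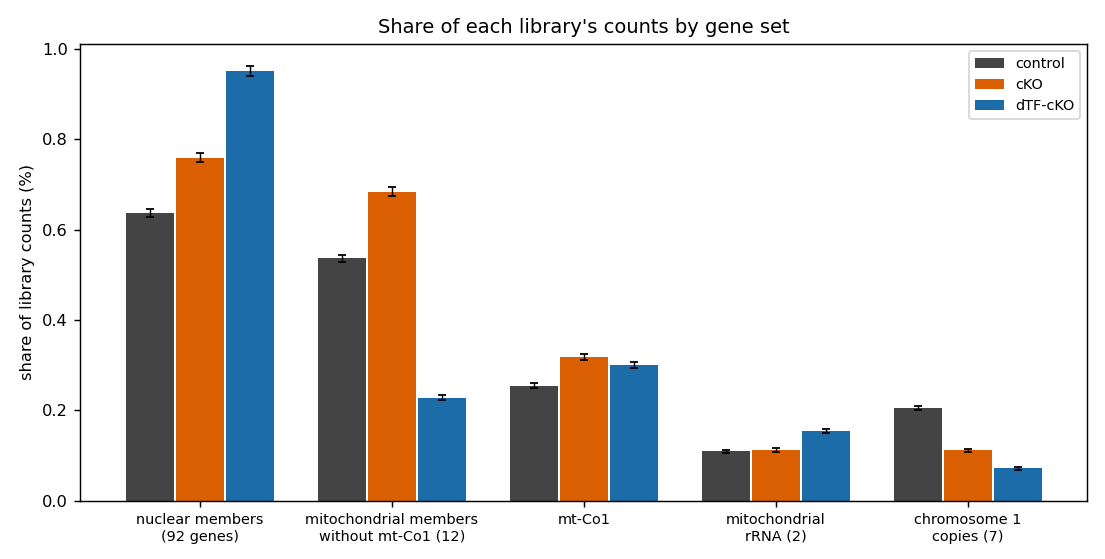
Share of each library's counts (%, vertical axis, from 0) taken by the nuclear members, the mitochondrial members without mt-Co1, mt-Co1, the 2 mitochondrial rRNAs and the 7 chromosome 1 copies of mitochondrial genes, with exact binomial 95% intervals as error bars and 1 bar per library. Nuclear members are highest in the dTF-cKO at 0.951%, and mitochondrial members other than mt-Co1 are lowest there at 0.228%.

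By TMM-scaled level, most of the 86 measured nuclear members were somewhat higher in both mutants. In the cKO their median log2 difference from the control was 0.23, against 0.06 over all 12127 measured genes, with 59 of 86 above 0. Past 2-fold there was 1 higher nuclear member, Ndufa4l2, and 0 lower, where 9.66% and 6.78% of measured genes were higher and lower. In the dTF-cKO the median was 0.55, against 0.06 over all measured genes, with 72 of 86 above 0. Here 12 members passed 2-fold upward and 0 downward, against 19.5% and 20.9% of measured genes. The share past 2-fold was thus below that of all genes in both directions, whereas the share above 0, 68.6% (cKO) and 83.7% (dTF-cKO), compared with 54.5% and 52.4% of all measured genes. Between the dTF-cKO and the cKO, whose values are not independent of the comparisons with the control, the median was 0.26, with 5 members past 2-fold upward (Cox4i2, Cox7c, Ndufa7, Ndufa6 and Cox7a2l) and 1 downward (Ndufaf7), against 14.5% and 20.5% of measured genes. Of the 86, 60 had their highest CPM in the dTF-cKO, 19 in the cKO and 7 in the control, and 40 were ordered control, cKO, dTF-cKO from low to high. The sign of the median depends on the scaling in 2 of the 3 comparisons. With the stromal scaling the cKO median turned to -0.22, where that of all measured genes was -0.39. With totals that leave out the top 20 genes of each library, the median of dTF-cKO against cKO turned to -0.03. The median of all measured genes was then -0.29, so in both cases the nuclear members stayed above it. Against the control, the dTF-cKO median was above 0 under each scaling tried, from 0.20 to 2.43. That of all measured genes ran from -0.29 to 1.94.

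Levels per length differed between the genomes as well as among members. The mean over libraries was a median of 38.5 CPM per kilobase for the nuclear members with an annotated length, from 1.05 to 331, and 302 for the mitochondrial members, from 10.3 to 1880. mt-Co1 and mt-Cytb were the 2 highest, at 1673, 1944 and 2021 and at 1356, 1661 and 654 CPM per kilobase, and Cox6a1 was the highest nuclear member. Among the lowest nuclear members was Atp5l, at 0.999, 0.824 and 1.33 CPM per kilobase, a gene whose pseudogene Gm10221 matches it fully over 309 bases and held more counts (41, 24 and 36) than the gene itself (23, 15 and 24).

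The 13 mitochondrial members behaved otherwise. Their median log2 difference in the cKO was 0.22, but they were spread from -3.34 to 0.84, with 7 above 0. Past 2-fold, 4 were lower (mt-Nd6, mt-Co2, mt-Co3 and mt-Atp6) and 0 higher, against 6.78% and 9.66% of measured genes. In the dTF-cKO the mitochondrial median was -1.46, with 11 of 13 past 2-fold downward and 0 upward, against 20.9% and 19.5% of measured genes. Of the 99 measured members, the mitochondrial genome thus held all 11 past 2-fold below the control in the dTF-cKO and 0 of the 12 past 2-fold above it. Under the expression minimum, the nuclear muscle isoforms Cox6a2 and Cox8b were also lower there, on few counts given with the isoforms. With the stromal scaling these counts became 0 lower and 2 higher (mt-Co1 and mt-Nd5) of the mitochondrial members and 84 higher of the nuclear members. The same scaling put 9333 of all measured genes past 2-fold upward and 524 downward, in place of 2363 and 2530. In the dTF-cKO against the cKO, 7 mitochondrial members were past 2-fold downward and 1, mt-Nd6, upward, against 20.5% and 14.5% of measured genes. For mt-Nd6 this rests on 6 against 2 counts, and the interval of its fold includes 1 (0.542 to 30.7).

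**Figure D2:**
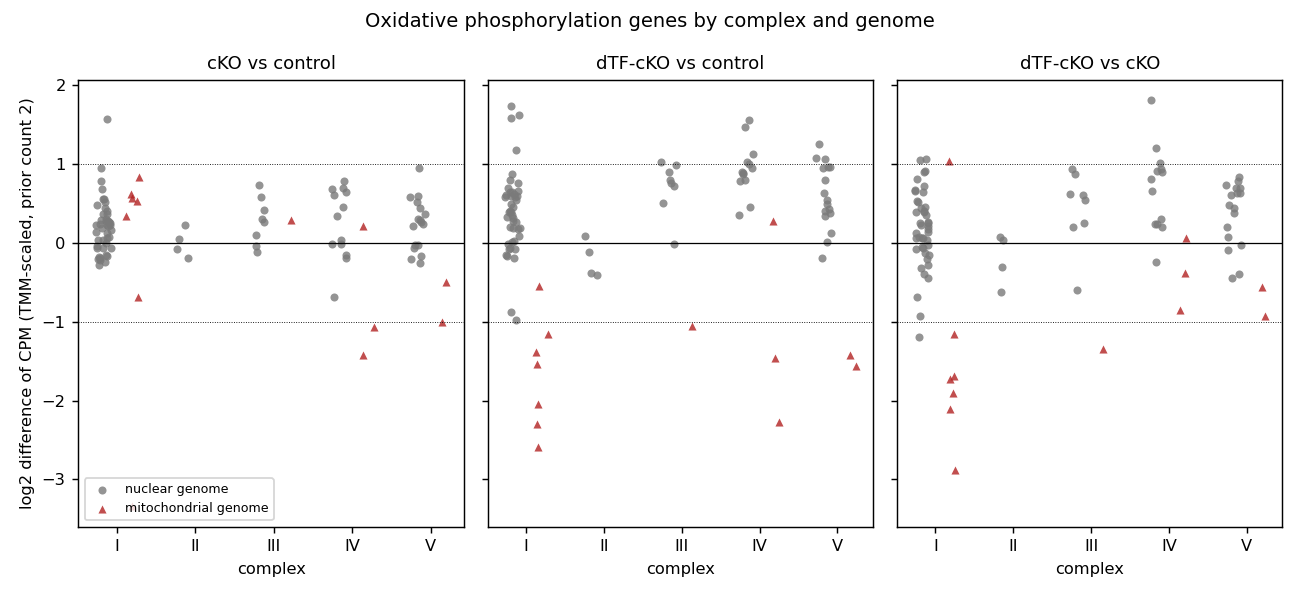
Log2 differences of TMM-scaled CPM (prior count 2, vertical axis) of the 99 measured members by complex (horizontal axis), with nuclear members as grey circles and mitochondrial members as red triangles, for each of the 3 comparisons; dotted lines mark 2-fold. In dTF-cKO against control, 12 of 13 triangles lie below 0, and 13 of 13 measured nuclear members of complex IV lie above 0.

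Complex I takes electrons from NADH. Of its mitochondrial core, mt-Nd1, which forms part of the quinone site, held 2973, 3486 and 801 counts, and mt-Nd2 held 1635, 1872 and 573. Both were highest in the cKO and lowest in the dTF-cKO, there 2.91-fold (2.69 to 3.15) and 2.23-fold (2.03 to 2.46) below the control. The antiporter-like subunit mt-Nd4 held 2628, 2625 and 785 counts and was 2.62-fold lower in the dTF-cKO (2.42 to 2.84).

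The distal pump subunit mt-Nd5, with 2608, 3160 and 1400 counts, was nearest to the control among the complex I core in the dTF-cKO, at 1.46-fold lower (1.37 to 1.56). The 2 small subunits mt-Nd3 (276, 392 and 51 counts) and mt-Nd4l (158, 77 and 19) were 4.24-fold (3.13 to 5.83) and 6.51-fold lower (4.03 to 11.1). The short reading frame of mt-Nd4l overlaps that of mt-Nd4 by 7 bases, and the pair is known to stay on 1 transcript. Their counts stood apart in the cKO, where mt-Nd4l was lower than the control and mt-Nd4 was higher. Near-identical chromosome 1 copies, described below, held 59.0%, 53.3% and 55.8% of gene and copy together for mt-Nd4l. For mt-Nd4 they held 18.4%, 6.48% and 8.72%. With the copies added, the cKO log2 differences were -0.88 for mt-Nd4l and 0.14 for mt-Nd4. The part of read placement was not tested.

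mt-Nd6 is the mitochondrial protein gene encoded on the opposite strand from the other 12, and it shares 14 bases with the end of mt-Nd5. It held 47, 2 and 6 counts. It was 18.6-fold lower in the cKO, with an interval of 4.87 to 158 because only 2 reads were counted, and 6.13-fold lower in the dTF-cKO (2.62 to 17.6). The strand setting of the counting is not given in the sources used here, so reads from mt-Nd6 and from RNA antisense to it cannot be told apart. How well poly-A selection captured mt-Nd6 was not tested either, so its counts need not follow its level.

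Complexes were assigned by symbol, so Ndufa4 and Ndufa4l2 were counted with complex I. The 38 nuclear subunits so placed in complex I had a median of 0.23 (cKO) and 0.48 (dTF-cKO), with 31 of 38 above 0 in the latter. The accessory subunits Ndufa6 and Ndufa7 held 165, 210 and 434 counts and 183, 213 and 443 counts, which put them 3.36-fold (2.80 to 4.04) and 3.09-fold (2.60 to 3.69) above the control in the dTF-cKO. Ndufs4, a peripheral-arm subunit whose loss is a mouse model of Leigh syndrome, held 77, 106 and 185 counts, 3.07-fold higher in the dTF-cKO (2.34 to 4.06). All 3 of these genes had their lowest counts in the control and their highest in the dTF-cKO.

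Subunits of the catalytic core lay nearer to the control. Ndufs1, which carries iron-sulphur clusters, held 190, 180 and 130 counts, and the NADH-binding Ndufv1 held 283, 224 and 291. Their log2 differences in the dTF-cKO were -0.19 and 0.39. Ndufa5, with 75, 61 and 31 counts, was the structural subunit farthest below the control in the dTF-cKO, at -0.88. Ndufb7 (161, 140 and 120 counts), Ndufb8 (157, 146 and 116), Ndufc2 (131, 93 and 97) and Ndufa1 (65, 50 and 45), all of the membrane arm, were also slightly below the control in the dTF-cKO, at -0.07, -0.08, -0.08 and -0.17, while their neighbours in that arm Ndufb6 (86, 79 and 125) and Ndufb11 (275, 267 and 364) were above it, at 0.88 and 0.75. The mitochondrial over nuclear ratio of complex I, taken over all 45 nuclear members named Nduf, was 1.59, 1.88 and 0.477. It was highest in the cKO and 3.33-fold below the control in the dTF-cKO.

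The Ndufaf genes help to assemble the complex and are not part of the finished enzyme. The 6 of 7 that were measured had a median of 0.15 (cKO) and 0.02 (dTF-cKO), close to the 0.06 of all genes, and Ndufaf7 held 55, 51 and 21 counts, 2.05-fold lower in the dTF-cKO (1.22 to 3.57), a log2 difference of -0.98 that falls just short of the size rule.

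Complex II is the one respiratory complex with no mitochondrially encoded subunit, and it is also an enzyme of the TCA cycle. Its flavoprotein Sdha held 629, 470 and 376 counts and its iron-sulphur subunit Sdhb 303, 280 and 179. The membrane anchors Sdhc and Sdhd held 308, 253 and 257 counts and 268, 186 and 194. Its median in the dTF-cKO was -0.25, the lowest of the nuclear parts of the 5 complexes, and no gene of the 4 passed 2-fold in any comparison. Sdha was 1.31-fold below the control in the dTF-cKO (1.15 to 1.49), and Sdhd differed by less than its counting interval (1.08-fold lower, 0.896 to 1.31).

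Complex III passes electrons from ubiquinol to cytochrome c. Its mitochondrial subunit, mt-Cytb, held 5545, 5371 and 2093 counts and was 2.07-fold lower in the dTF-cKO (1.97 to 2.18). The 8 nuclear subunits had a median of 0.78, with 7 of 8 above 0. Uqcrh, the hinge protein, held 370, 392 and 591 counts, 2.04-fold higher in the dTF-cKO (1.79 to 2.33), and the core protein Uqcrc2 held 330, 254 and 484. Uqcrb and Uqcrq, which surround the cytochrome b core, held 104, 138 and 163 counts and 166, 158 and 228. Uqcr11 was the one subunit without a higher value in the dTF-cKO, with 211, 251 and 163 counts and a log2 difference of -0.02. The mitochondrial over nuclear ratio of complex III was 2.67, 2.69 and 0.775, so the intervals of the control and the cKO overlapped (2.54 to 2.81 and 2.55 to 2.83) and the dTF-cKO stood 3.45-fold below the control.

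Complex IV, cytochrome c oxidase, showed the largest median on the nuclear side. Its 13 measured nuclear members of 18 had a median of 0.34 (cKO) and 0.89 (dTF-cKO). Cox7c, a small subunit, held 171, 172 and 396 counts and was 2.96-fold higher in the dTF-cKO (2.47 to 3.56). Cox7a2l, which joins complexes III and IV into supercomplexes, held 327, 354 and 710, 2.77-fold higher (2.43 to 3.17). Cox5a, which contacts the regulatory sites of the enzyme, held 112, 154 and 180 counts, and Cox6c and Cox7b held 120, 150 and 176 and 151, 192 and 219, so these 3 were already above the control in the cKO, by 0.79, 0.65 and 0.68 on the log2 scale. Cox5b, which binds zinc, held 184, 222 and 185 counts and was highest in the cKO by scaled level.

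Cox6a1, the nuclear complex IV member with the highest level per length, had 274, 247 and 472 CPM per kilobase.

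The 3 catalytic core genes of complex IV differed from each other. mt-Co1, which holds the site of oxygen reduction, held 9243, 8492 and 8740 counts, and its scaled level was 2585, 3004 and 3123 CPM. mt-Co2, which binds cytochrome c, held 937, 276 and 151 counts, 2.69-fold lower in the cKO (2.35 to 3.08) and 4.86-fold lower in the dTF-cKO (4.09 to 5.81). mt-Co3 held 1379, 518 and 392 counts, 2.11-fold (1.90 to 2.33) and 2.75-fold lower (2.46 to 3.09). Within each library, mt-Co2 stood at 10.1%, 3.25% and 1.73% of the mt-Co1 count and mt-Co3 at 14.9%, 6.10% and 4.49%. These percentages need no scaling, but counts also stood on near-identical chromosome 1 copies, described below. For mt-Co2 the copy held 63.1%, 68.2% and 69.4% of gene and copy together, and for mt-Co1 11.55%, 5.61% and 7.27%. The part of read placement in these percentages was not tested.

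mt-Co1 made up 32.2%, 31.7% and 56.9% of all mitochondrial member counts. It was the one mitochondrial member above the control in the dTF-cKO, at 0.27 on the log2 scale. Without mt-Co1 the mitochondrial over nuclear ratio was 0.842, 0.901 and 0.239, or 3.52-fold below the control for the dTF-cKO. For complex IV alone the ratio was 3.09, 2.86 and 1.75. In every library it rested mainly on mt-Co1, with 9243 of 11559, 8492 of 9286 and 8740 of 9283 mitochondrial complex IV counts.

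Complex V makes ATP. mt-Atp6, the proton channel subunit, held 1127, 443 and 297 counts, 2.01-fold lower in the cKO (1.80 to 2.25) and 2.97-fold lower in the dTF-cKO (2.61 to 3.39). mt-Atp8 overlaps it by 43 bases and held 172, 96 and 49 counts, 1.42-fold (1.10 to 1.84) and 2.75-fold lower (1.99 to 3.86). The 17 nuclear members, placed here by symbol, include the assembly or accessory genes Atp5s and Atp5sl. They had a median of 0.27 (cKO) and 0.55 (dTF-cKO), with 16 of 17 above 0 in the latter. Atp5b, the catalytic beta subunit and the nuclear member of complex V with the highest level per length, held 2862, 2163 and 3485 counts and was 1.56-fold higher in the dTF-cKO (1.48 to 1.64). Atp5c1, the central stalk subunit, held 339, 383 and 634, 2.39-fold higher (2.09 to 2.73). Atp5a1, the alpha subunit, held 2185, 1503 and 2307 counts, and the delta and epsilon subunits Atp5d and Atp5e held 679, 635 and 1024 and 440, 448 and 675, 0.94 and 0.97 above the control on the log2 scale in the dTF-cKO. The 3 genes that encode the same c-ring protein diverged: Atp5g2 held 121, 118 and 202 counts, Atp5g1 240, 220 and 205, and Atp5g3 611, 432 and 419. The mitochondrial over nuclear ratio of complex V, 0.140, 0.0698 and 0.0315, was below the control in both mutants, 2.0-fold and 4.44-fold.

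Along the mitochondrial genome, the cKO did not differ from the control in 1 direction. The first genes, mt-Nd1 and mt-Nd2, and mt-Nd4, mt-Nd5 and mt-Cytb farther on were 1.23-fold to 1.53-fold higher, mt-Co1 was 1.16-fold higher, and the run mt-Co2, mt-Atp8, mt-Atp6 and mt-Co3 in between was 1.42-fold to 2.69-fold lower. mt-Nd3 next to this run was 1.80-fold higher (1.54 to 2.10), and mt-Nd4l after it was 1.62-fold lower (1.23 to 2.16). All of this run but mt-Atp8 has an annotated near-identical copy on chromosome 1, described below, as do mt-Co1, mt-Nd3, mt-Nd4 and mt-Nd4l. The copies of mt-Co2 and mt-Atp6 flank a gap on chromosome 1 where mt-Atp8 would lie, and a copy there was not looked for. The 43 bases that mt-Atp8 shares with mt-Atp6 lie in the fully identical copy of mt-Atp6. The 7 members with an annotated copy had a cKO median of -0.685, with 3 past 2-fold downward and 3 above 0. The 6 without an annotated copy had 0.413, with 1 past 2-fold downward (mt-Nd6) and 4 above 0. These 6 include mt-Atp8, at -0.495, so the split goes by annotation only. The part of read placement in this order was not tested. In the dTF-cKO all members but mt-Co1 lay below the control. The mitochondrial rRNAs did not follow: mt-Rnr1 held 923, 993 and 1465 counts and mt-Rnr2 3069, 2003 and 3036, so their sum per mitochondrial mRNA count was 0.139, 0.112 and 0.293. Poly-A selection captures mitochondrial RNAs through short tails where they carry them, and differences in tail length or capture between genes or libraries were not tested.

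**Figure D3:**
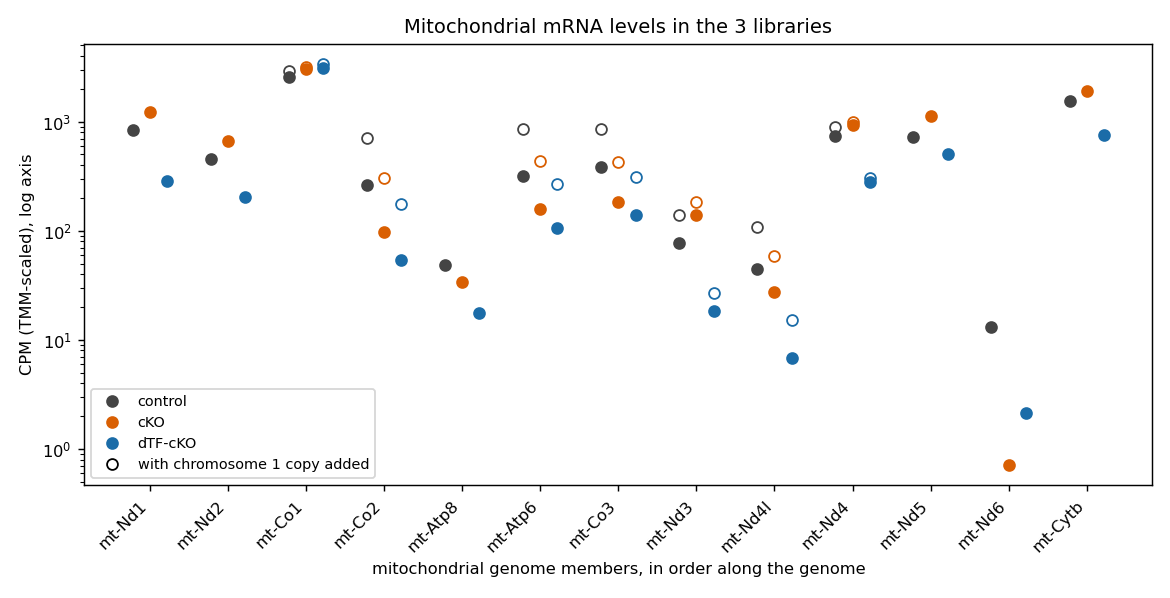
TMM-scaled CPM (vertical, log axis) of the 13 mitochondrial members in genome order, filled circles for the member row and open circles after adding its chromosome 1 copy, 1 colour per library. The dTF-cKO is lowest for 11 members, and at mt-Co1 it is the highest of the 3 libraries; the added copies raise mt-Co2 and mt-Atp6 by the largest factors in every library, with copies holding 60.8% to 69.4% of the sum, and keep the order of the libraries for both.

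Counts also stood on near-identical copies of mitochondrial genes. The nuclear genome holds a stretch of mitochondrial DNA on mouse chromosome 1, annotated as 7 unprocessed pseudogenes on the minus strand between chr1:24611535 and chr1:24616197 (mm10), and the count tables list them as genes. The sequences are shown because they set whether a short read can be placed. Over the first 40 bases of mt-Co2 (chrM:7013-7052, plus strand, exon) and its copy Gm28661 (chr1:24615526-24615565, minus strand), and over all 681 aligned bases, there was no mismatch:
mt-Co2: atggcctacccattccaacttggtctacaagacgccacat
Gm28661: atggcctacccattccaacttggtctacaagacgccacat
The copies of mt-Atp6, mt-Co3, mt-Nd4 and mt-Nd4l were also 100% identical over 678, 783, 876 and 294 aligned bases. Only the copies of mt-Co1 and mt-Nd3 differed, each by the base in capitals, A1066T and T3C, with positions counted from 1 at the start of the mitochondrial gene:
mt-Co1 (chrM:6390-6413, plus strand): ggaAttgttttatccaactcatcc
Gm29216 (chr1:24616165-24616188, minus strand): ggaTttgttttatccaactcatcc
mt-Nd3 (chrM:9459-9481, plus strand): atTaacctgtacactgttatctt
Gm28438 (chr1:24613097-24613119, minus strand): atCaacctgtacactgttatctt

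The 7 chromosome 1 copies summed to 7474, 2983 and 2091 counts. Less similar copies elsewhere are not in these sums. On chromosome 2, copies of mt-Co1 (97.6% identity) and mt-Co2 (95.9%) held 319, 102 and 109 counts and 228, 124 and 85. Those of mt-Nd2 (chromosome 2) and mt-Nd5 (chromosome 13) held 45, 11 and 3 counts and 4, 4 and 1. Of the counts of mt-Co2 and its chromosome 1 copy together, the copy held 63.1%, 68.2% and 69.4%. For mt-Atp6 the copy held 62.9%, 64.0% and 60.8%, and for mt-Co3 55.3%, 57.4% and 55.1%. The copy of mt-Nd4, which spans only part of the gene, held 18.4%, 6.48% and 8.72%. How the authors' counting treated reads with several equal matches is not given in the sources used here, and nuclear transcription of the stretch was not tested.

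With each chromosome 1 copy added to its gene, mt-Co2, mt-Atp6 and mt-Co3 remained below the control. The summed log2 difference in the cKO was -1.21 for mt-Co2, -0.97 for mt-Atp6 and -1.0 for mt-Co3, and in the dTF-cKO -2.01, -1.65 and -1.47. The mitochondrial over nuclear ratio became 1.56, 1.47 and 0.631. The dTF-cKO then stood 2.48-fold below the control, and the small difference of the cKO turned to -0.10 on the log2 scale, so the data give no direction for the ratio in the cKO.

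Nuclear members have such look-alikes too, as processed pseudogenes that arose from their mRNAs. At 95% identity or more over at least 100 bases, 32 listed rows matched 19 nuclear members. They summed to 806, 244 and 483 counts beside 3553, 3719 and 4969 for the members they match. Of the 19 copy rows with at least 20 counts in all, 19 lay below the control in the cKO and 16 past 2-fold, with a median of -1.60 where their members had 0.30. The copy of Atp5f1, Gm12231, held 58, 7 and 16 counts beside 348, 331 and 345 for Atp5f1. In the dTF-cKO 15 of the 19 were below 0 and 3 past 2-fold. Low counts in the cKO were not limited to members' copies: all 5103 processed pseudogenes took 1.92%, 0.896% and 1.97% of the counts.

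**Figure D4:**
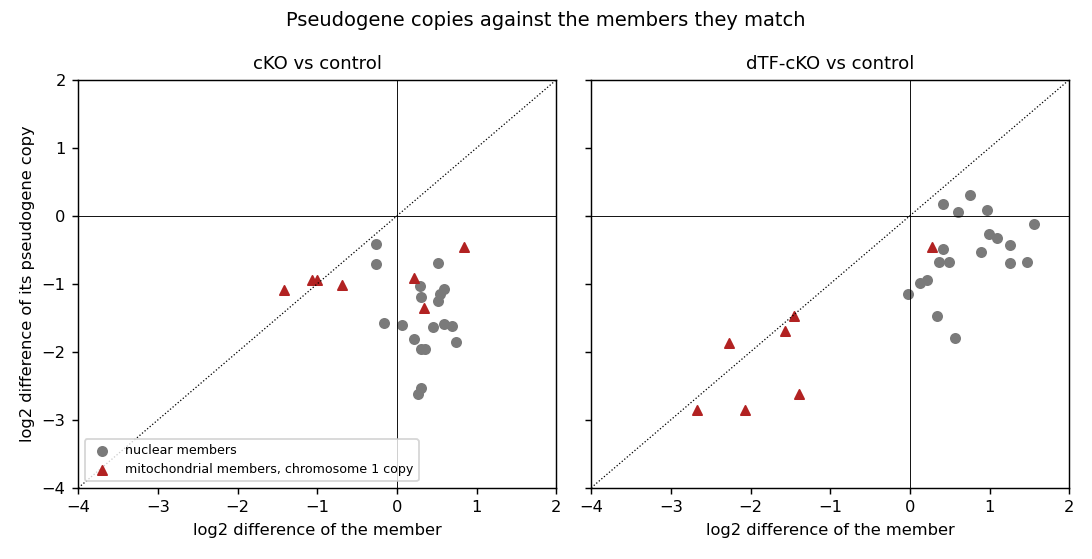
Log2 difference of a pseudogene copy (vertical) against that of the member it matches (horizontal), for 19 copy rows of nuclear members with at least 20 counts (grey circles) and the 7 chromosome 1 copies of mitochondrial members (red triangles); the dotted line marks equal differences. In cKO against control the 19 grey circles lie below 0, with a median of -1.60, while the median of their members is 0.30.

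Several subunits exist as a widespread and a tissue-biased isoform, and the pairs differed between libraries. Ndufa4l2, a hypoxia-inducible paralogue of Ndufa4 that is high in pericytes, held 275, 649 and 488 counts. In the cKO it stood 2.99-fold above the control (2.59 to 3.45), the one measured nuclear member past 2-fold above the control there, and in the dTF-cKO 2.27-fold above it (1.95 to 2.64). Ndufa4, named after complex I and since assigned to complex IV, was counted here with complex I by its symbol. It held 259, 178 and 330. Per length, Ndufa4l2 was above Ndufa4 in all 3 libraries, at 70.3, 210 and 159 against 52.5, 45.6 and 85.4 CPM per kilobase.

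Cox4i2, the isoform of lung and of oxygen-sensing cells, held 46, 22 and 81 counts, 2.25-fold above the control in the dTF-cKO (1.55 to 3.30), beside 902, 622 and 969 for the common Cox4i1. Per length Cox4i2 was 16.3, 9.88 and 36.7 CPM per kilobase against 163, 142 and 223 for Cox4i1. The pericyte markers Rgs5 (138, 235 and 10 counts), Kcnj8 (79, 152 and 5) and Pdgfrb (824, 659 and 41) were all lowest in the dTF-cKO. Rgs5 and Kcnj8 were highest in the cKO, as was Ndufa4l2, while Pdgfrb scaled to library size was nearly equal in the control and the cKO. The part of these markers in the isoform values was not tested.

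The isoforms of striated muscle were low. Cox6a2 held 23, 4 and 5 counts, Cox7a1 3, 1 and 1, and Cox8b 8, 0 and 0. Cox6a2 was 4.55-fold (1.55 to 18.1) and 3.60-fold lower (1.34 to 12.1) in the cKO and dTF-cKO, and Cox8b was at least 2.11-fold and at least 2.09-fold lower, taking 3 counts as the limit that a count of 0 allows. The 18 measured marker genes of skeletal muscle were all past 2-fold downward in both mutants, and their part in the isoform values was not tested. The common partners Cox6a1 and Cox8a held 687, 490 and 927 counts and 441, 344 and 640, so the muscle isoforms made up a small part of each pair in every library. Cox7b2 and Cox8c, testis isoforms, held 0 counts in all 3 libraries, which allows up to 0.839, 1.06 and 1.07 CPM, and the testis isoform Cox6b2 held 38, 31 and 59. With Ndufaf6 (11, 8 and 12 counts), the low muscle and testis isoforms other than Cox6b2 were the 6 members under the expression minimum.

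**Figure D5:**
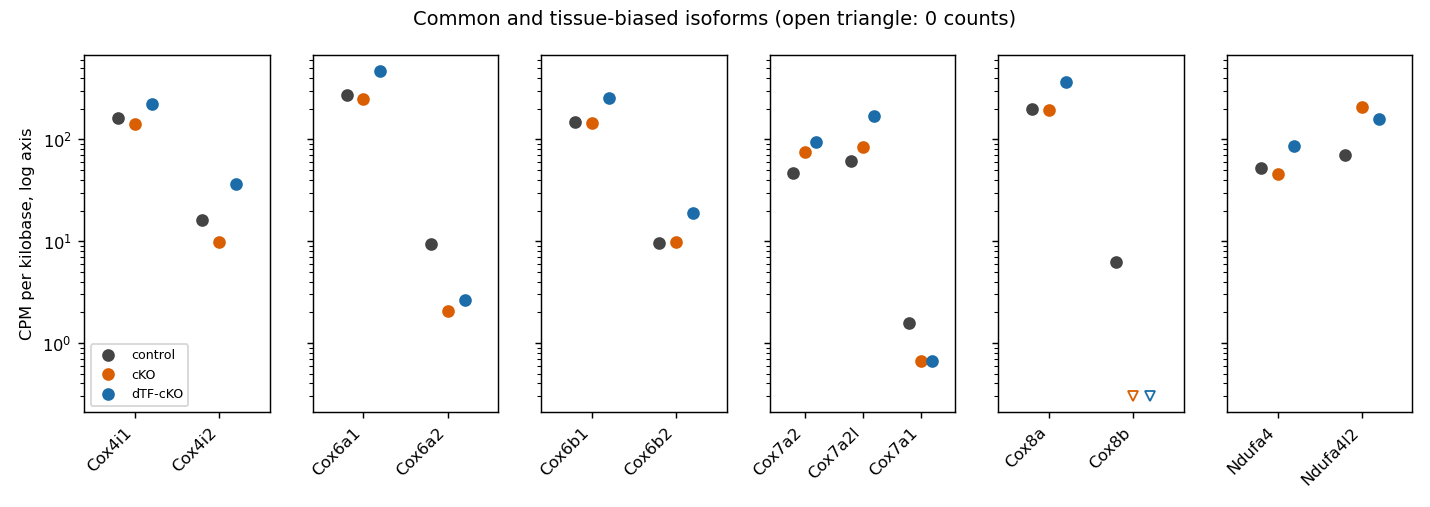
CPM per kilobase of gene length (vertical, log axis) of common subunits and their tissue-biased isoforms in the 3 libraries, 1 colour per library; open triangles mark 0 counts and are drawn at the bottom of the axis. Ndufa4l2 lies above Ndufa4 in all 3 libraries, and Cox8b is at 0 counts in both mutants.

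Promoters of nuclear members are known targets of a small group of factors that tie respiratory genes to mitochondrial biogenesis, among them NRF1, GABP, YY1 and the ERR receptors. In RefSeq windows of 300 bases (GRCm38.p6, 250 before to 50 after the start), available for 76 of the 92 nuclear members, the NRF1 letters GCGCATGCG or CGCATGCGC, which overlap each other in a full site, stood in 10 members, or 13.2%, against 1.95% of all genes with a window and 4.18% of the measured ones. The YY1 letters AAGATGGCG or CGCCATCTT stood in 10.5%, against 3.78% of measured genes. The ERR letters TCAAGGTCA or TGACCTTGA stood in only 2 of the 76 members, or 2.63%, against 0.250% of measured genes. The GABP letters CCGGAAGT or ACTTCCGG stood in 6.58%, against 9.01%. The following 50-base stretches show the NRF1 letters, in capitals, in promoters of 3 members:
Cox6a1 (chr5:115349091-115349140, minus strand): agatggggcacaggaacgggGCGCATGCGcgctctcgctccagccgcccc
Ndufa11 (chr17:56717682-56717731, plus strand): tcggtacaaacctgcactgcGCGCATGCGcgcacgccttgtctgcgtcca
Ndufaf4 (chr4:24897950-24897999, plus strand): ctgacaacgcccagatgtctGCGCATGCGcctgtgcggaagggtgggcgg
The log2 differences of Cox6a1, Ndufa11 and Ndufaf4 in the dTF-cKO were 0.78, 0.32 and 0.09. The 10 members with the letters had a median of 0.44 in the dTF-cKO and the 63 measured members without them 0.58.

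In the lists of related genes that follow, counts past 2-fold in the dTF-cKO stand against 19.5% of all measured genes higher and 20.9% lower. Among 12 biogenesis regulators, 6 were measured, with a median of -0.05 (cKO) and 0.71 (dTF-cKO), where 3 of 6 passed 2-fold upward and 0 downward; over all 12, with no expression minimum, the dTF-cKO median was 0.10, with 4 higher and 2 lower. Esrra, an ERR receptor, held 56, 45 and 126 counts (2.87-fold higher, 2.08 to 4.01), Gabpb1, a GABP subunit, 79, 68 and 158 (2.56-fold, 1.94 to 3.39), and Yy1 168, 165 and 273 (2.08-fold, 1.71 to 2.53). Ppargc1a, the PGC-1 alpha coactivator, held 10, 6 and 3 counts and was under the expression minimum.

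The genes of mitochondrial transcription, replication and RNA processing had a median nearer to 0 than the nuclear members in the dTF-cKO. Of 27 listed, 20 were measured, with a median of 0.25 (cKO) and 0.04 (dTF-cKO), where 1 passed 2-fold upward and 0 downward. Tfam, which packages mitochondrial DNA and starts its transcription, held 85, 82 and 69 counts, and its fold in the dTF-cKO was 1.04 (0.744 to 1.44). Polrmt, the mitochondrial RNA polymerase, held 114, 89 and 62 counts, 1.44-fold lower in the dTF-cKO (1.05 to 1.99). Lrpprc, which stabilises mitochondrial mRNAs, held 136, 164 and 79 counts, 1.35-fold lower than the control (1.01 to 1.80) and 2.06-fold lower than the cKO (1.56 to 2.72). Polg2, with 16, 15 and 32 counts, was the one gene past 2-fold against the control.

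Among neighbouring pathways, the 76 measured mitochondrial ribosomal proteins had medians of 0.13 and 0.39. At least 2-fold higher in the dTF-cKO were 11 of them, or 14.5%, below the 19.5% of all measured genes, and 0 were lower. The TCA cycle genes had 0.04 and 0.22, with 2 of 18 at least 2-fold higher in the dTF-cKO: citrate synthase Cs (609, 626 and 2110 counts, 4.43-fold, 4.04 to 4.85) and Dlat of the pyruvate dehydrogenase complex (123, 84 and 236). Of 13 measured electron carriers and coenzyme Q genes, with a median of 0.11 in the dTF-cKO, Etfa (100, 172 and 216 counts), which passes electrons from fatty acid oxidation, was past 2-fold upward and Coq4 (38, 25 and 6), needed for coenzyme Q synthesis, downward. Assembly factors outside the naming rule had medians of 0.16 and 0.12; of the 31 measured, Cox14 (86, 76 and 187 counts) was higher in the dTF-cKO, and Tmem126b (45, 37 and 10), Cox15 (93, 59 and 30) and Bcs1l (43, 40 and 14) were lower. Acad9, an assembly factor of complex I, held 96, 253 and 54 counts, 3.33-fold higher in the cKO (2.63 to 4.26).

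Glycolysis genes had medians of 0.49 (cKO) and 1.53 (dTF-cKO), where 12 of 16 were at least 2-fold higher. The glucose transporter Slc2a1 held 285, 887 and 6660 counts, 29.9-fold higher in the dTF-cKO (26.5 to 33.7), and is also abundant in erythroid cells and epidermis, whose markers were higher there too; their part was not tested. Cytosolic ribosomal proteins had medians of 0.35 and 1.31, with 71 of 86 at least 2-fold higher in the dTF-cKO. The nuclear members' median of 0.55 lay below both of these and close to the 0.54 of 16 genes of the outer membrane and of protein import. The brown fat gene Ucp1, which uncouples the proton gradient from ATP synthesis, held 0 counts in all 3 libraries.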

How the data were processed

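The authors deposited whole-number read counts for each gene, not normalised, from 1 library for each of 3 genotypes. The submitters' processing notes name the build mm10; for the aligner, the counter, the annotation and the strandedness the sources used here give nothing. The members and lists were chosen with earlier results of these data known. Members were found by symbol; 104 of 105 matched GENCODE vM21, used for coordinates and exon length. Counts were scaled with TMM factors (0.984, 1.06 and 0.963) in edgeR 4.0.16 under R 4.3.3, and 2 prior counts were added before taking log2 CPM. Measured genes had a mean of at least 5 CPM, and at least 2-fold means a log2 difference of 1 or more in size. With no replicates there was no test. Folds leave the prior count out and have exact conditional (Clopper-Pearson) 95% intervals, and shares have exact binomial ones. PCR reads lack molecular identifiers and are no independent molecules; all intervals cover counting error only. The calculations were tested on simulated data. Copies were found with BLAST 2.17.0 (95% identity, 100 bases). Named genes were Ctnnb1, the mitochondrial members, the 2 highest of each complex per kilobase, members past 2-fold (at most 8 in each direction per comparison), isoform pairs, and up to 3 genes of each other list; all other members, Tfam, Polrmt, Lrpprc, the pericyte markers, and the copies and rRNAs were chosen after their values were seen. Alternatives were other scalings (library totals, DESeq2 1.42.0 size factors, totals that leave out the top 20 genes per library or other gene sets, and a stromal median), prior counts, expression minimums, size rules and member sets.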

Additional observations from a re-analysis of the deposited data

Results flagged for a closer look

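3 sums outside the member rows differed from the control. The summed mitochondrial rRNA was 1.44-fold higher in the dTF-cKO (3992 against 4501 counts, the control first), while 11 of the 13 mitochondrial mRNAs were at least 2-fold lower there. The summed mitochondrial tRNA rows, with 100, 201 and 124 counts, were 2.54-fold higher in the cKO and 1.58-fold higher in the dTF-cKO. Of these counts, mt-Tm, the gene directly before mt-Nd2, held 84, 177 and 107. Mature tRNAs carry no poly-A tail, and what these reads represent was not tested.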

How the results depend on the processing

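Of 9 member medians and ratios under the alternatives, 82 values kept their direction within a set width, 16 moved beyond it and 10 changed sign. For medians the width was about 0.3 on the log2 scale, the typical counting error of a single member. The counting error of a median itself was not computed. For ratios the width was their own counting error, 0.036 to 0.039. Ratios within a library do not change with scaling. Of these sign changes 4 came from the stromal scaling, which shifts every gene by 1.88 in dTF-cKO against control, and 6 from other alternatives given below. The stromal scaling gave nuclear medians of -0.220 (cKO), 2.429 (dTF-cKO) and 2.250 (dTF-cKO against cKO), and mitochondrial medians of -0.230, 0.424 and 0.831. Over all measured genes the medians were then -0.391, 1.936 and 1.998. Single genes that changed sign under it were, in the dTF-cKO against control, Cox6a2 (0.342), Ctnnb1 (0.666), mt-Atp6 (0.316), mt-Atp8 (0.456), mt-Co3 (0.424), mt-Cytb (0.829), mt-Nd1 (0.345), mt-Nd2 (0.724) and mt-Nd4 (0.493), and against the cKO Ndufaf7 (0.794), mt-Cytb (0.646), mt-Nd2 (0.300), mt-Nd4 (0.265), mt-Nd4l (0.084) and mt-Nd5 (0.831). Totals that leave out the top 20 genes per library gave a nuclear median of 0.196 and a mitochondrial one of -1.816 in the dTF-cKO, and -0.033 and -1.456 against the cKO. Over all measured genes the medians were then -0.292 and -0.286. The cause was not tested.

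The log2 ratio of mitochondrial to nuclear counts in the cKO, 0.087, was -1.408 with medians of members in place of sums, 0.216 without mt-Co1 to mt-Co3, -0.015 without the 5 highest nuclear members, -0.095 with the chromosome 1 copies and -0.074 with all copies added. In the dTF-cKO, where it was -1.160, it was -1.960 with medians, -1.755 without mt-Co1 to mt-Co3, -1.814 without mt-Co1, and -1.309 and -1.292 with the copies. Against the cKO, where it was -1.247, it was -0.552, -1.971 and -1.912 for the first 3 of these, and -1.147 without the 5 highest nuclear members. Mitochondrial medians were -0.101 in the cKO without mt-Co1, and -1.517 in the dTF-cKO against the cKO without mt-Co1 to mt-Co3. Alternatives with copies, and those without mt-Co1, were chosen after seeing the data.

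With the 2-fold rule kept, the count of nuclear members higher in the dTF-cKO, 12, ran from 5 (totals without the top genes, or without genes of other tissues and bone) to 84 (stromal scaling), and the count of lower mitochondrial members, 11, from 0 (stromal scaling) to 11. In the cKO the lower mitochondrial members, 4, ran from 2 to 5. Against the cKO, nuclear members higher, 5, ran from 1 to 85 and mitochondrial members lower, 7, from 0 to 9. All measured genes higher and lower ran from 675 to 2149 and 325 to 2293 in the cKO, and from 1648 to 9333 and 524 to 4619 in the dTF-cKO. With rules of 1.5-fold and 3-fold in place of 2-fold, nuclear members higher were 12 and 0 (cKO), 40 and 3 (dTF-cKO), and 29 and 1 (dTF-cKO against cKO); lower mitochondrial members were 5 and 1, 11 and 4, and 9 and 5. All measured genes higher were then 2195 and 692 (cKO) and 3791 and 1255 (dTF-cKO), and those lower 1602 and 382, and 3583 and 1586. A single member typically carries a counting error of about 0.3 on the log2 scale, and depth limits mt-Nd6, Cox6a2 and Cox8b to a few reads. No paired analysis was possible because each genotype had 1 library.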
